A study of Mus musculus with 9 samples.

Results

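Aoah and 8 genes that sense bacterial products were followed across 9 arrays of atherosclerotic mouse aorta. The genes were Aoah, Cd14, Tlr2, Tlr4, Ly96, Lbp, Myd88, Tlr7 and Tlr9, and all 17 probe sets that the platform annotation assigns to these symbols alone were taken, of 45037 probe sets that are no controls. The 9 genes stand among 18193 with a probe set of their own. The members were chosen by a measured value, the lower Aoah signal in HDAd-gE3 than in HDAd-0 aortas, so that comparison is given for them as a description, with no test.

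The mice were female, lacked apolipoprotein E (genotype APOE-/-) on a C57BL/6 background, were labelled 8 weeks of age, with no stage named, and ate a diet with 0.2% cholesterol and 10% coconut oil for 30 weeks. They were killed 10 days after 1 tail-vein injection. PBS animals received phosphate-buffered saline, the vehicle. HDAd-0 animals received an empty helper-dependent adenovirus, an adenoviral vector from which the viral genes have been removed, and HDAd-gE3 animals the same kind of vector with the human apolipoprotein E3 gene, at the same stated dose. Every group thus shared the Apoe deletion, the diet and the injection route, and each array held the pooled RNA of 3 aortas cut from sinus to arch, so single animals are not resolved. There were 3 arrays per group, and their number limits the precision of every value.

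Lipopolysaccharide, or endotoxin, is the lipid of the outer membrane of Gram-negative bacteria. Lipopolysaccharide-binding protein (Lbp) carries it in plasma to CD14, which hands it to the complex of toll-like receptor 4 (Tlr4) and MD-2 (Ly96), and the adaptor MyD88 passes the signal on to NF-kappaB. Acyloxyacyl hydrolase (Aoah) is a lipase of macrophages, dendritic cells and neutrophils that removes secondary acyl chains from lipopolysaccharide and so inactivates it. Tlr2 senses bacterial lipoproteins, and Tlr7 and Tlr9 sense RNA and DNA in endosomes.

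Upstream sequences in RefSeq (GRCm38.p6) were on hand for 4 of the 9 genes. Those of Aoah, Tlr2 and Myd88 are shown because the results below set the endotoxin-inactivating enzyme against a receptor and the adaptor that share 1 high array. Each is the 250 bases before the annotated gene start, on the gene's own strand, with letter matches to 5 searched motifs in capitals. The Aoah stretch is chr13:20793863-20794112 on the plus strand, that of Tlr2 is chr3:83841609-83841858 on the minus strand, and that of Myd88 is chr9:119340019-119340268 on the minus strand.
Aoah: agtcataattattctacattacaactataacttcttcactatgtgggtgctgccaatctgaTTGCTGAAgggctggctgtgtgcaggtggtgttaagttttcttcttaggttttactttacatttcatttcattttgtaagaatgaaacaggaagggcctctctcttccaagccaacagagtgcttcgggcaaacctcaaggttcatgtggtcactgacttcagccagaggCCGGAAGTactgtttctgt
Tlr2: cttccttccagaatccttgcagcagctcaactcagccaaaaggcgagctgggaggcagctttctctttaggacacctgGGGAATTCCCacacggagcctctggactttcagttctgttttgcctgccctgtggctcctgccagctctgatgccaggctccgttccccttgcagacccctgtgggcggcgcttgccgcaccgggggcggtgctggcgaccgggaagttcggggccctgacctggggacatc
Myd88: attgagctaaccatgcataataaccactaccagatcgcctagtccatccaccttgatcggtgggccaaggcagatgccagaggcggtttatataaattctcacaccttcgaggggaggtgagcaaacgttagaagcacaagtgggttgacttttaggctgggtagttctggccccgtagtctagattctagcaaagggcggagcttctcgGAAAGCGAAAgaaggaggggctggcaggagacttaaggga

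The motifs were searched on both strands, and none of the matches overlap. Aoah held CCGGAAGT, an ETS-family core, from 19 to 12 bases before the start, and TTGCTGAA, a match to the C/EBP letters TTGCNNAA, from 189 to 182 bases before it. Of all 32851 upstream windows of this length, 2.88% held the first motif and 9.56% the second. Tlr2 held GGGAATTCCC, an NF-kappaB palindrome present in 0.0335% of windows, and Myd88 held GAAAGCGAAA, a match to the interferon-response element (GAAA, any 2 bases, GAAA), present in 2.98%. GAGGAA, a PU.1 core held by 23.3% of windows, was not among the letters of these 3. These are matches of letters only, and the arrays measured no binding.

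The arrays gave log2 signals from 1.98 to 14.7 with array medians between 6.67 and 6.77, and no pair of arrays correlated below 0.991. Markers of the labelled tissue were measured on every array, at levels that varied by gene. The macrophage gene Cd68 ran from 12.89 to 13.12, but Itgam from 6.15 to 6.63, below the array medians. The smooth muscle gene Myh11 ran from 13.29 to 13.55 and the endothelial gene Cdh5 from 8.69 to 9.34. HDAd-0 replicate 4 stood apart for many genes treated here. Without it the number of probe sets called between HDAd-0 and PBS went from 4 to 542 (limma, adjusted p under 0.05). Results that rest on that array are given with and without it. Since whole aortas were measured, fewer cells of a type and less RNA per cell cannot be told apart.

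Aoah was low on the 3 HDAd-gE3 arrays and alike in the other groups. Its brightest probe set, 1450764_at, read 9.32, 9.42 and 9.46 on the PBS arrays. The HDAd-0 arrays read 9.37, 9.40 and 9.23, within or just below that range. The HDAd-gE3 arrays read 8.81, 8.76 and 8.65, below every array of the other groups.

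**Figure D1:**
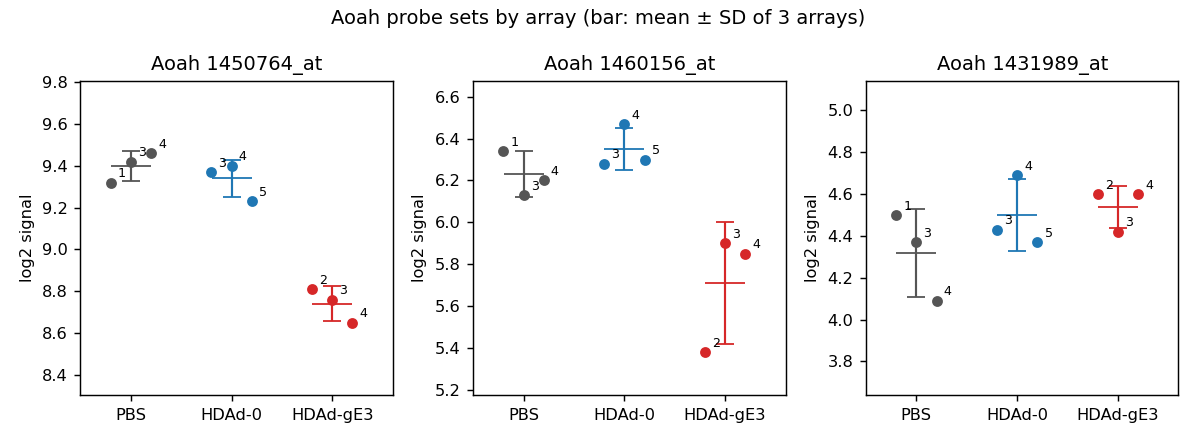
Log2 signal of the 3 Aoah probe sets on each array (points, numbered by replicate), with mean and SD of 3 arrays per group (bars). Each panel spans 1.5 log2 units. On 1450764_at and 1460156_at all HDAd-gE3 arrays lie below all others, while the groups overlap on the dim probe set 1431989_at.

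The group means of 1450764_at were 9.40 ± 0.071 with PBS, 9.34 ± 0.089 with HDAd-0 and 8.74 ± 0.084 with HDAd-gE3 (log2, SD, n = 3). Against PBS the HDAd-gE3 mean was 1.58-fold lower, a difference of -0.66 ± 0.078 (SE) with a 95% interval from -0.83 to -0.48. That missed the threshold over all probe sets narrowly (limma, adjusted p = 0.0515), in a comparison where 1 of 45037 probe sets, or 0.00222%, passed. With 1 probe set per gene, a fit in which its SE was 0.073, the same values passed (limma, adjusted p = 0.031). They also passed in 3 other of the alternative fits at the same threshold. This comparison shares its HDAd-gE3 arrays with the one that drew attention to Aoah and is no independent check of it.

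Between HDAd-0 and PBS 1450764_at differed by -0.06 ± 0.078, with an interval from -0.24 to 0.11 (limma, adjusted p = 0.78). No difference between the empty vector and PBS was detected, and one of the size seen with HDAd-gE3 lies outside the interval. The HDAd-0 arrays were also part of the comparison that chose Aoah, so the interval is a description and excludes no such difference. Between HDAd-gE3 and HDAd-0, the comparison that chose the gene, the difference was -0.59 ± 0.078.

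The other Aoah probe sets did not all follow. On 1460156_at the PBS arrays read 6.34, 6.13 and 6.20, the HDAd-0 arrays 6.28, 6.47 and 6.30, and the HDAd-gE3 arrays 5.38, 5.90 and 5.85. Again all HDAd-gE3 arrays were lowest, with replicate 2 well below the rest. The difference from PBS was -0.52 ± 0.14 (limma, adjusted p = 0.262), and -0.35 without HDAd-gE3 replicate 2. The third, 1431989_at, sat in the dimmest part of the table, with 25.1% of probe sets below it, and read 4.32 ± 0.21, 4.50 ± 0.17 and 4.54 ± 0.10 with PBS, HDAd-0 and HDAd-gE3. Its HDAd-gE3 mean was the highest of the 3, by 0.22 ± 0.13 over PBS (limma, adjusted p = 0.563). Averaging the 3 probe sets gave -0.32 ± 0.075 for HDAd-gE3 against PBS (limma, adjusted p = 0.179).

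The mean of the macrophage markers also differed between the groups and was highest on the HDAd-0 arrays. The mean of 24 macrophage genes, among them Cd68 and Csf1r, lay between 11.84 and 11.87 on the PBS arrays, 11.94 and 11.98 on the HDAd-0 arrays and 11.79 and 11.84 on the HDAd-gE3 arrays. Against PBS, 19 of the 24 had a lower mean with HDAd-gE3, with a median difference of -0.07, and none passed the threshold (4 lower and 1 higher at an unadjusted p under 0.05, limma). Taken relative to that list on each array, Aoah 1450764_at stood at -2.52, -2.44 and -2.41 with PBS, at -2.57, -2.58 and -2.75 with HDAd-0 and at -2.97, -3.08 and -3.18 with HDAd-gE3. On this scale the HDAd-gE3 arrays were the lowest for 1450764_at and for 1460156_at. The latter stood at -6.11 ± 0.26 with HDAd-gE3, -5.63 ± 0.12 with PBS and -5.62 ± 0.091 with HDAd-0. The dim 1431989_at had its highest mean with HDAd-gE3, at -7.28 ± 0.13 against -7.54 ± 0.23 with PBS and -7.47 ± 0.17 with HDAd-0. The part of macrophage number in the Aoah values was not tested.

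Neutrophils and dendritic cells also hold Aoah. The mean of 12 neutrophil genes lay between 8.55 and 8.83 with PBS, 8.33 and 8.97 with HDAd-0 and 9.24 and 10.31 with HDAd-gE3, so it was highest where Aoah was lowest. For 8 dendritic cell genes the ranges were 7.29 to 7.47, 7.54 to 7.83 and 7.25 to 7.53 in the same order. The part of these cells in the Aoah values was not tested. The 3' minus 5' signal of control transcripts, a sign of RNA quality, was 0.866 ± 0.071 with PBS, 0.933 ± 0.16 with HDAd-0 and 0.735 ± 0.069 with HDAd-gE3. With this signal in the model, a choice made once the values were known, 1450764_at differed by -0.60 ± 0.086 between HDAd-gE3 and PBS (limma, adjusted p = 0.213).

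The receptor Tlr4 gave the next clearest values, on 1 of its 4 probe sets. On the brightest, 1418162_at, the PBS arrays read 11.00, 11.06 and 11.10, the HDAd-0 arrays 10.89, 10.90 and 10.76, and the HDAd-gE3 arrays 10.58, 10.78 and 10.72. All PBS arrays were above all vector arrays. The difference from PBS was -0.36 ± 0.077 with HDAd-gE3 (interval -0.53 to -0.18; limma, adjusted p = 0.182) and -0.20 ± 0.077 with HDAd-0 (limma, adjusted p = 0.352), neither past the threshold.

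A second Tlr4 probe set, 1418163_at, was designed from the same sequence record and disagreed. It read 8.01 ± 0.081 with PBS, 8.05 ± 0.11 with HDAd-0 and 8.01 ± 0.059 with HDAd-gE3, a difference from PBS of 0.00 ± 0.08 with HDAd-gE3. Its interval of -0.18 to 0.18 only touches that of the brighter probe set. The others, 1442827_at and 1430695_at, differed by 0.09 ± 0.17 and -0.05 ± 0.18 with HDAd-gE3, and 1430695_at lay near the bottom of the table, with 6.65% of probe sets dimmer. Against PBS, Tlr4 thus has no direction that its probe sets share. Between HDAd-gE3 and HDAd-0 all 4 had a lower mean, from -0.16 to -0.04, with overlapping arrays. That shared direction rests on 1 array. Without HDAd-0 replicate 4 the differences were -0.13 ± 0.085 on 1418162_at and -0.16 ± 0.18 on 1442827_at. They were 0.00 ± 0.087 on 1418163_at and 0.00 ± 0.21 on 1430695_at.

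Ly96, the MD-2 subunit that binds lipopolysaccharide inside the Tlr4 complex, was level across the study. The PBS arrays read 10.52, 10.56 and 10.43, the HDAd-0 arrays 10.48, 10.48 and 10.58, and the HDAd-gE3 arrays 10.43, 10.58 and 10.60, all overlapping. Its difference from PBS was 0.01 ± 0.075 with HDAd-0 and 0.03 ± 0.075 with HDAd-gE3, with an interval of -0.14 to 0.21 for the second. Its sign turned under several alternatives.

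Cd14, Tlr2, Lbp and Myd88 shared a different feature, a high value on HDAd-0 replicate 4. Cd14, the co-receptor that delivers endotoxin to Tlr4, read 11.73 there and 11.27 and 11.18 on the other HDAd-0 arrays. Its PBS arrays read 11.36, 11.32 and 11.28 and its HDAd-gE3 arrays 11.14, 11.18 and 11.13. Every HDAd-gE3 array was below every PBS array, by a mean of -0.16 ± 0.13 (limma, adjusted p = 0.681), or -0.16 ± 0.06 without HDAd-0 replicate 4 (limma, adjusted p = 0.31).

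Tlr2, the lipoprotein receptor, repeated this layout. It read 10.24, 10.72 and 10.13 on HDAd-0 replicates 3, 4 and 5, 10.34, 10.27 and 10.24 on the PBS arrays and 9.97, 10.13 and 10.15 on the HDAd-gE3 arrays. Again no HDAd-gE3 array reached a PBS array, with a difference of -0.20 ± 0.14 (limma, adjusted p = 0.639).

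**Figure D2:**
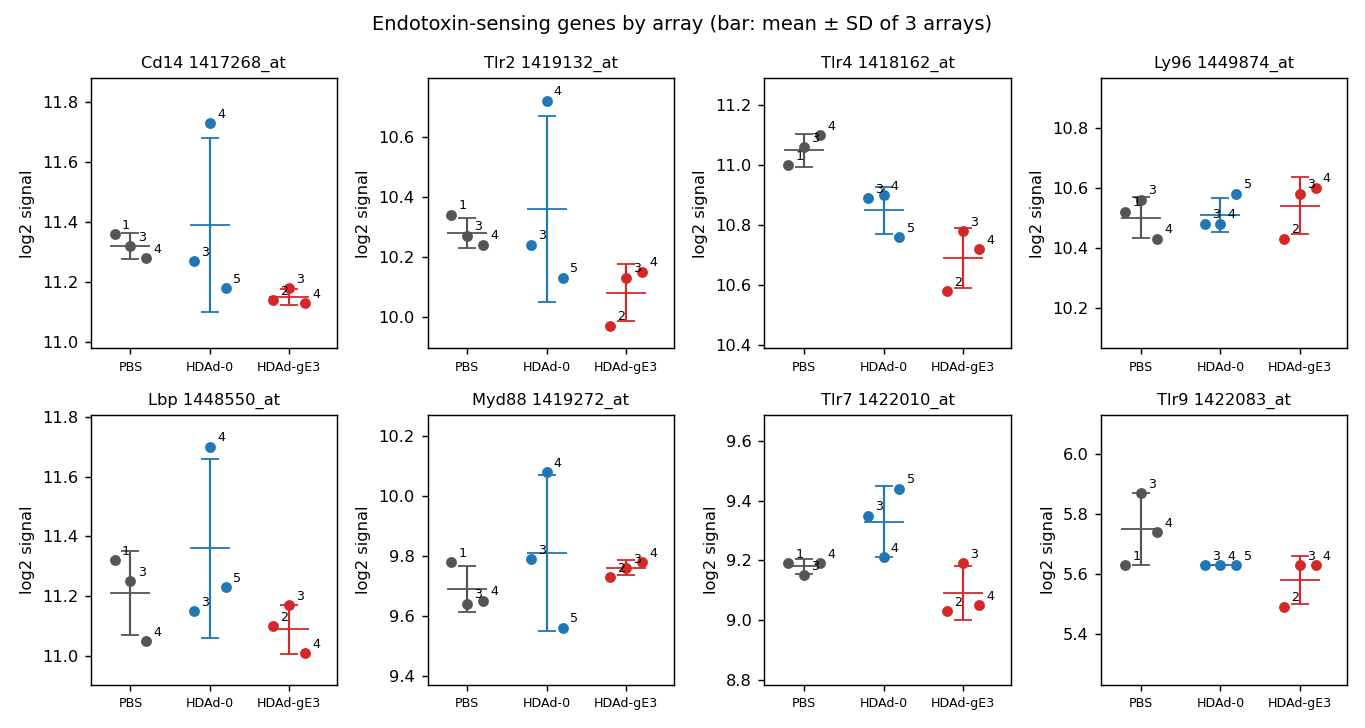
Log2 signal of the brightest probe set of the other 8 genes on each array (points, numbered by replicate), with mean and SD of 3 arrays per group (bars). Each panel spans 0.9 log2 units. HDAd-0 replicate 4 is the highest array for Cd14, Tlr2, Lbp and Myd88, and the PBS arrays are the highest for Tlr4.

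Lbp, the plasma carrier of endotoxin made mostly by liver, read 11.15, 11.70 and 11.23 on HDAd-0 replicates 3, 4 and 5 on its brighter probe set, 1448550_at. The PBS arrays read 11.32, 11.25 and 11.05 and the HDAd-gE3 arrays 11.10, 11.17 and 11.01, and the groups overlapped. The dimmer 1447520_at had the same high array, at 8.78 against 8.22 and 7.99. The mean of 13 liver genes was 8.41, 9.02 and 9.74 on HDAd-0 replicates 3, 4 and 5, against 7.67 to 8.09 with PBS and 7.89 to 8.62 with HDAd-gE3. The part of liver RNA in the Lbp values was not tested. No Lbp difference passed in either comparison with PBS (limma, adjusted p between 0.702 and 0.923).

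Myd88, the adaptor shared by most toll-like receptors, read 9.79, 10.08 and 9.56 on HDAd-0 replicates 3, 4 and 5, so that group held both its highest and its lowest array. The PBS arrays read 9.78, 9.64 and 9.65 and the HDAd-gE3 arrays 9.73, 9.76 and 9.78. Its differences from PBS were 0.12 ± 0.12 with HDAd-0 and 0.07 ± 0.12 with HDAd-gE3 (limma, adjusted p = 0.722 and 0.884).

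Leaving out HDAd-0 replicate 4 turned the sign of these genes between HDAd-0 and PBS. Cd14 went from 0.08 ± 0.13 to -0.09 ± 0.067, Tlr2 from 0.08 ± 0.14 to -0.10 ± 0.081, Lbp from 0.15 ± 0.14 to -0.02 ± 0.098 and Myd88 from 0.12 ± 0.12 to -0.02 ± 0.088. None of these passed with or without the array. Aoah 1450764_at was less affected, at -0.10 ± 0.084 without it. That array was the highest of the 9 for 8 of the 17 member probe sets, against 17.0% of all probe sets.

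**Figure D3:**
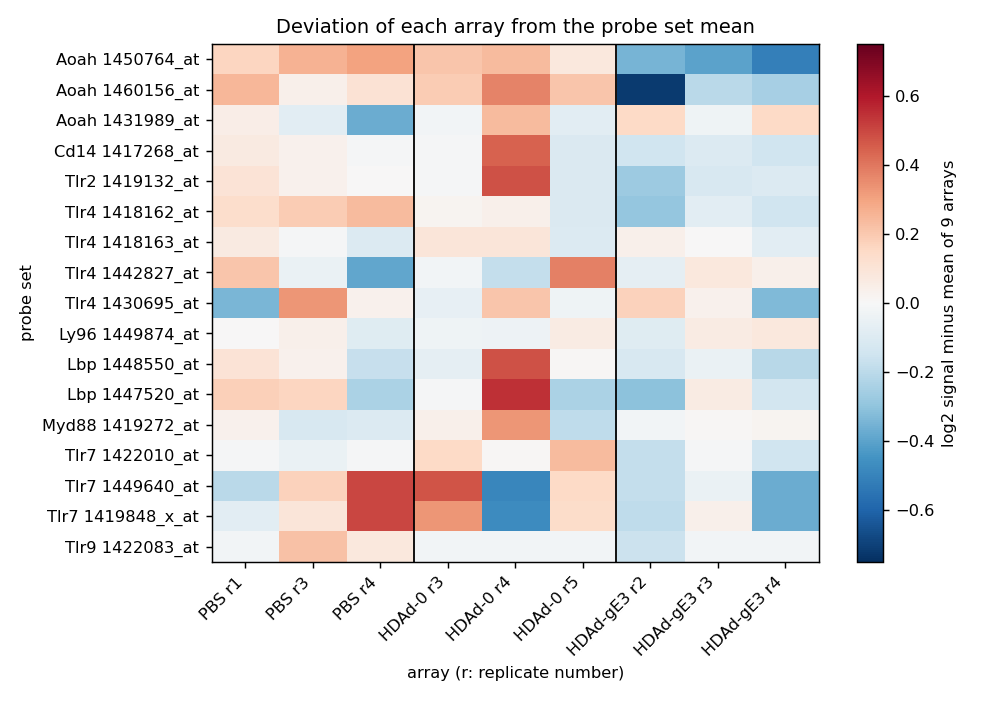
Log2 signal of each member probe set on each array minus its mean over the 9 arrays (colour), with groups set apart by lines. The blue block of HDAd-gE3 on the first 2 Aoah probe sets, and the red cells of Cd14, Tlr2, Lbp and Myd88 on HDAd-0 replicate 4, stand out; on that array 2 Tlr7 probe sets are at their lowest.

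The nucleic acid sensors gave mixed values. The brightest Tlr7 probe set, 1422010_at, read 9.19, 9.15 and 9.19 with PBS, 9.35, 9.21 and 9.44 with HDAd-0 and 9.03, 9.19 and 9.05 with HDAd-gE3. All HDAd-0 arrays were above all PBS arrays, by 0.16 ± 0.08 (limma, adjusted p = 0.47), while HDAd-gE3 and PBS overlapped. Between HDAd-gE3 and HDAd-0 the difference was -0.24 ± 0.08, without overlap.

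The 2 dimmer Tlr7 probe sets, designed from 1 record, ran together and unlike the bright one. On 1449640_at the HDAd-0 arrays read 8.23, 7.28 and 7.92, with replicate 4 the lowest of the study, and the PBS arrays spread from 7.57 to 8.27. Both had a lower mean with HDAd-0 than with PBS, by -0.11 ± 0.25 and -0.17 ± 0.22, so the probe sets of Tlr7 disagree in sign there. That rests on 1 array: without HDAd-0 replicate 4 both had higher means, by 0.15 ± 0.2 and 0.07 ± 0.18, the sign of the bright one. With HDAd-gE3 all 3 had lower means than with PBS, from -0.36 to -0.09, with none past the threshold.

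Tlr9, the receptor for unmethylated DNA, was dim, with 38.9% of probe sets below it. It was listed at 5.63 on 6 arrays, among them all of HDAd-0, and at 5.49 on HDAd-gE3 replicate 2 and 5.74 and 5.87 on PBS replicates 4 and 3. Its difference from PBS was -0.17 ± 0.08 with HDAd-gE3 (limma, adjusted p = 0.492). The mean of 6 B cell genes, a cell type in which Tlr7 and Tlr9 are active, overlapped between all groups. The mean of the 24 macrophage genes did not overlap between HDAd-0 (11.94 to 11.98) and PBS (11.84 to 11.87). Nor did that of the 8 dendritic cell genes, at 7.54 to 7.83 and 7.29 to 7.47. The brightest Tlr7 probe set was likewise higher on all HDAd-0 arrays than on all PBS arrays. The dimmer Tlr7 probe sets and Tlr9 had lower means with HDAd-0. The part of these cells in the Tlr7 and Tlr9 values was not tested.

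Counted over all 17 probe sets, none passed in either comparison with PBS (limma), where 0.00888% of all probe sets passed for HDAd-0 and 0.00222% for HDAd-gE3. Taken without adjustment at a p under 0.05, Tlr4 1418162_at was the 1 lower between HDAd-0 and PBS and 0 were higher, against 5.75% and 6.59% of all probe sets. It was also the 1 whose arrays all lay lower, against 7.46%, and Tlr7 1422010_at the 1 whose arrays all lay higher, against 9.43%. A lower mean with HDAd-0 was found for 5, against 47.1%. Between HDAd-gE3 and PBS 3 were lower and 0 higher by the unadjusted p, Aoah 1450764_at and 1460156_at and Tlr4 1418162_at, against 5.47% and 5.54%. There 5 had all HDAd-gE3 arrays below all PBS arrays, the same 3 with Cd14 and Tlr2, against 10.3% of all probe sets. A lower mean was found for 12, against 51.3%. The median difference of the 17 was -0.164 in that comparison, where that of all probe sets was -0.005, and 0.067 against 0.010 between HDAd-0 and PBS. Aoah was chosen for low values on the same HDAd-gE3 arrays, so the HDAd-gE3 counts and median are a description. Apart from Aoah, only Tlr4 1418162_at was lower by the unadjusted p between HDAd-gE3 and PBS.

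Between HDAd-gE3 and HDAd-0, given as description, 15 of the 17 had a lower mean, as did 54.6% of all probe sets, and 3 did not overlap, against 9.56% lower and not overlapping overall. They were the same Aoah pair and Tlr7 1422010_at. Cd14 differed by -0.24 ± 0.13, Tlr2 by -0.28 ± 0.14 and Lbp by -0.26 ± 0.14, each with overlapping arrays. Without HDAd-0 replicate 4 these were -0.07 ± 0.067, -0.10 ± 0.081 and -0.09 ± 0.098, and Aoah 1450764_at was -0.56 ± 0.084. Myd88 turned to 0.08 ± 0.088 without it, so the count of 15 rests in part on that array. The 3 comparisons share groups of arrays, so their values are not independent.

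**Figure D4:**
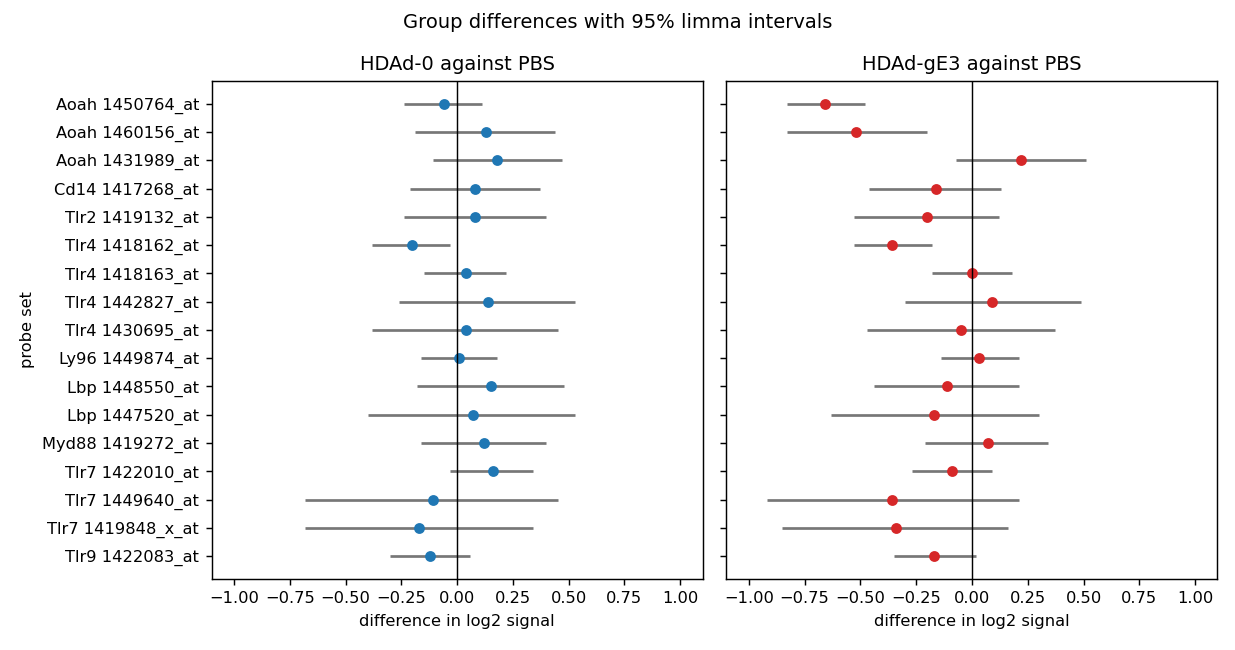
Difference in mean log2 signal between HDAd-0 and PBS (left) and between HDAd-gE3 and PBS (right) for each member probe set (points), with 95% intervals from limma (lines). The intervals of Aoah 1450764_at and 1460156_at and Tlr4 1418162_at lie below 0 on the right, and that of Tlr4 1418162_at on the left; none passed after adjustment over all probe sets.

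The wider pathway was described through 109 further genes in 7 lists, 96 of them measured, each by its brightest probe set. None passed the threshold in any of the 3 comparisons (limma). Shares of all probe sets given beside these genes include dim probe sets, so the sets are not alike. Between HDAd-0 and PBS 69 of the 96 had a higher mean and 27 a lower one, where 47.1% of all probe sets were lower. Their median was 0.10, against 0.01 for all probe sets and 0.024 for the brightest of each gene. Before adjustment 19 were higher and 3 lower (p under 0.05, limma), where all probe sets gave 6.59% and 5.75%. Without HDAd-0 replicate 4 the median was 0.04, and 14 were higher and 4 lower, where all probe sets gave 8.46% and 8.72%. Cell type markers also differed in mean in this comparison. A higher mean was found for 20 of 24 macrophage genes (median 0.05) and 14 of 15 endothelial genes (median 0.37, 10 at an unadjusted p under 0.05, limma). The same held for 6 of 8 dendritic cell genes (median 0.30) and 3 of 4 erythroid genes (median 1.06). So did 13 of 13 liver genes (median 1.24, 10 at an unadjusted p under 0.05, limma) and 6 of 8 skeletal muscle genes (median 1.08, 5 by the same measure). All 7 cardiac muscle genes had a lower mean (median -0.76). None of these passed after adjustment (limma), but 5 endothelial genes did without HDAd-0 replicate 4, and their part in the pathway values was not tested.

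The transcription factors, which include the NF-kappaB subunits Rela and Relb and the macrophage factor Spi1, had a higher mean with HDAd-0 than with PBS in 13 of 13 genes, with a median of 0.17 and 6 at an unadjusted p under 0.05. Without HDAd-0 replicate 4 these were 11 of 13, 0.12 and 4. The cytosolic sensors, among them the inflammasome adaptor Pycard, were higher in mean in 8 of 8, with a median of 0.18, and in 8 of 8 with a median of 0.13 without that array. Adaptors and kinases were split, 8 higher and 8 lower, or 5 and 11 without it. The genes with the smallest p were Tab1, a partner of the kinase TAK1, at 0.40 ± 0.075, Marcksl1 at 0.52 ± 0.13 and Unc93b1, which carries Tlr7 and Tlr9 to endosomes, at 0.46 ± 0.12. On the lower side they were the chemokine gene Ccl3 at -0.50 ± 0.11, Ikbkg, the NEMO subunit of the IkappaB kinase, at -0.24 ± 0.065, and Alpl, an alkaline phosphatase, at -0.32 ± 0.11. None of these 6 passed (limma, adjusted p between 0.147 and 0.297).

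Between HDAd-gE3 and PBS 61 of the 96 genes were lower and 35 higher in mean, where 51.3% of all probe sets were lower. Their median was -0.04, against -0.005 for all probe sets and -0.015 for the brightest of each gene. Before adjustment 13 were lower and 5 higher, where all probe sets gave 5.47% and 5.54%. Ccl3 had the smallest p: the PBS arrays read 10.79, 10.97 and 10.98 and the HDAd-gE3 arrays 10.15, 10.55 and 10.29, a difference of -0.58 ± 0.11 (limma, adjusted p = 0.151). Cd180, a relative of Tlr4 on B cells and macrophages, differed by -0.60 ± 0.14 and Ikbkg by -0.30 ± 0.065 (limma, adjusted p = 0.219 and 0.185). Cnpy3, a chaperone of toll-like receptors, and the scavenger receptor Marco leaned the other way, by 0.21 ± 0.067 and 0.41 ± 0.14, as did Tab1 by 0.23 ± 0.075. Marker lists leaned both ways here. Higher in mean were 11 of 12 neutrophil genes (median 0.63), 13 of 15 endothelial genes (median 0.13) and 3 of 4 erythroid genes (median 1.65). Lower in mean were 19 of 24 macrophage genes (median -0.07) and 6 of 8 skeletal muscle genes (median -0.20). The part of cell makeup was not tested.

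Between HDAd-gE3 and HDAd-0, 83 of 96 had a lower mean, against 54.6% of all probe sets. Their median was -0.14, against -0.02 for all probe sets and -0.04 for the brightest of each gene. Before adjustment 30 were lower and 2 higher (p under 0.05, limma), where all probe sets gave 6.76% and 6.08%. Without HDAd-0 replicate 4 there were 72 lower in mean, with a median of -0.11, and 22 lower and 1 higher before adjustment, where all probe sets gave 7.57% and 8.83%. Some marker lists leaned the same way. A lower mean was found for 24 of 24 macrophage genes (median -0.12, 8 at an unadjusted p under 0.05, limma) and 14 of 15 endothelial genes (median -0.24). The same held for 7 of 8 dendritic cell genes (median -0.27) and 13 of 13 liver genes (median -0.86). So did 7 of 8 skeletal muscle genes (median -1.11) and 7 of 9 T and NK cell genes (median -0.09). Other lists leaned the other way. A higher mean was found for 11 of 12 neutrophil genes (median 0.61), 10 of 10 smooth muscle genes (median 0.11) and 7 of 7 cardiac muscle genes (median 0.61). The part of cell makeup was not tested. The smallest p belonged to Pik3ap1, a signalling adaptor, at -0.49 ± 0.088, to Tlr1, the partner of Tlr2, at -0.40 ± 0.081 and to Inpp5d, the lipid phosphatase SHIP1, at -0.29 ± 0.07. On the Tlr1 probe set the HDAd-gE3 arrays read 9.81, 9.75 and 9.83 and the HDAd-0 arrays 10.06, 10.24 and 10.29. Pglyrp1, a neutrophil protein that binds peptidoglycan, was higher in mean by 0.90 ± 0.25, with overlapping groups, and Alpl by 0.26 ± 0.11 and Map3k7, the kinase TAK1, by 0.10 ± 0.074. None of the 6 passed (limma, adjusted p between 0.173 and 0.565).

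**Figure D5:**
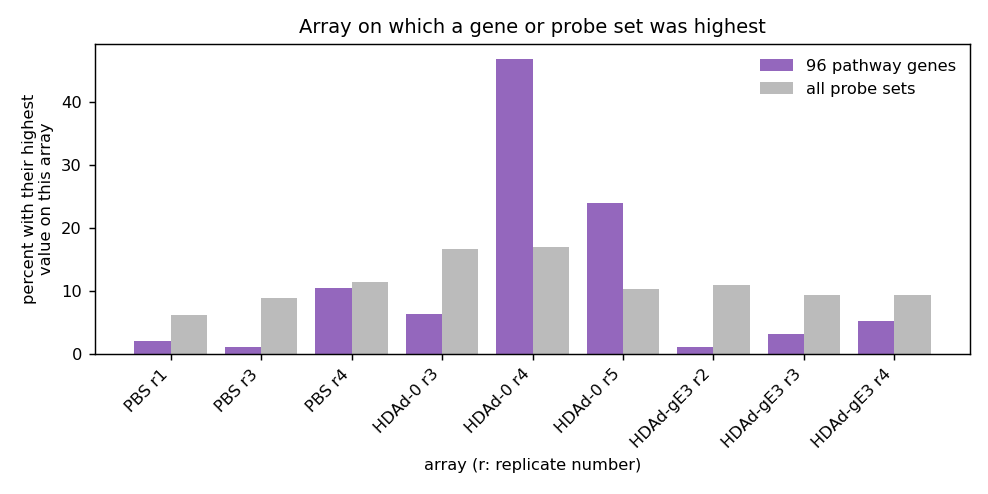
Percent of the 96 pathway genes by brightest probe set (purple) and of all probe sets (grey) with their highest value on each array. HDAd-0 replicate 4 held the highest value of 46.9% of the pathway genes and 17.0% of all probe sets.

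HDAd-0 replicate 4 was the highest array for 45 of the 96 pathway genes, or 46.9%. Relative to the mean of the 9 arrays, the inducible targets, genes such as Tnf, Il1b and Cxcl1 that toll-like receptor signals switch on, stood at 0.28 on it, against -0.07 and 0.13 on HDAd-0 replicates 3 and 5. The negative regulators stood at 0.20 against 0.05 and 0.04. Adgre1, the F4/80 antigen of macrophages, also peaked there at 11.84, against 11.48 and 11.48, while the whole macrophage list was level at 11.98 on replicates 4 and 5. Its 3' minus 5' control signal was the highest of the study, 1.08. The part of RNA quality and of cell makeup in these values was not tested.

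Genes whose values ran most like Aoah 1450764_at over the 9 arrays were sought among 16284 named genes by Pearson's r, as a description. The closest 10 were Agap1 (r = 0.973), Derl1, Dxo, Grn, Gpr137b, Ccl9, Ms4a6d, Tmem109, Ccl24 and Atp8b4 (r = 0.948). In all 10 each HDAd-gE3 array was below each array of the other groups. Choosing genes by r with Aoah favours that layout, and also a positive r within groups. Within groups, from deviations from the group means, r was 0.97 for Tmem109, 0.79 for Agap1, 0.67 for Ccl9 and 0.45 to 0.63 for the rest. Differences between HDAd-gE3 and PBS were mostly smaller than that of Aoah: progranulin (Grn) differed by -0.20 ± 0.059 and the chemokine gene Ccl9 by -0.20 ± 0.063, while the lipid flippase gene Atp8b4 differed by -0.55 ± 0.097 and the chemokine gene Ccl24 by -1.20 ± 0.14. Among the other members Tlr4 1418162_at was nearest, at r = 0.81 and rank 378, and Ly96 and Myd88 were far, at r = -0.38 and 0.03 over the same 9 arrays.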

How the data were processed

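A table of log2 signals, 45101 probe sets by 9 arrays, was deposited. The authors made it with RMA, according to the submitters' processing notes, which name no version. RMA gives the probe intensities of all arrays one distribution, and shifts common to most genes are lost. Array medians of the probe set values still ran from 6.67 to 6.77. Of the probe sets, 64 are controls, 34945 carry 1 gene symbol in the platform annotation, 932 several and 9160 no symbol; gene identifiers tied 34741 of them to RefSeq (GRCm38.p6). One model per probe set was fitted in limma 3.58.1 under R 4.3.3 (lmFit, eBayes) to the 9 arrays, over 45037 probe sets, with Benjamini-Hochberg adjustment and a 0.05 threshold, after the script was tested on simulated data. With 3 arrays a group, exact permutation p-values stop at 0.1. Each array is a pool, so p-values measure the spread between pools. All member probe sets are named, as are the 3 pathway genes with the smallest p in each direction and the 10 genes of highest r, by their brightest probe sets and without clones and predicted genes. Rela, Relb, Spi1, Pycard, Tnf, Il1b, Cxcl1, Cd68, Csf1r and Myh11 stand as examples of lists, and Adgre1, Itgam and Cdh5 were picked after their values were seen. Members and lists were chosen with earlier results of these data known. The 21 alternatives changed normalization, filters, summaries, model or arrays, and the one with the control signal was added after seeing the data. Figures were drawn with matplotlib 3.10.9.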

Additional observations from a re-analysis of the deposited data

How the results depend on the processing

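Counts of called members depended on the fit in 1 comparison with PBS. Between HDAd-gE3 and PBS 1 member, Aoah 1450764_at, passed in place of 0 with a filter on dim probe sets, with 1 probe set per gene, with array weights, with an intensity trend and at a threshold of 0.1 (limma, adjusted p = 0.0235, 0.031, 0.0149, 0.019 and 0.0515), and its difference ran from -0.73 to -0.32 over all 21 alternatives. Leaving out single arrays gave 0 calls there, with differences from -0.69 to -0.61 and adjusted p from 0.0661 to 0.265. Between HDAd-gE3 and HDAd-0 leaving out single arrays moved the count between 0 and 1, which is no test, since Aoah was chosen from that comparison. No alternative gave a call for members between HDAd-0 and PBS or for pathway genes in any comparison.

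Signs of small differences turned. Between HDAd-0 and PBS the mean of probe sets gave 0.08 for Aoah, 0.00 for Tlr4 and -0.04 for Tlr7, the replicate block -0.01 for Ly96, array weights -0.01 for Cd14 and -0.01 for Tlr2, and the control-signal covariate 0.00 for Tlr2. For Ly96 median centring gave 0.00 for HDAd-gE3 against PBS and -0.04 against HDAd-0, and the covariate -0.03 against HDAd-0, where Myd88 was 0.02 with array weights and 0.15 with the covariate. Without single arrays, HDAd-0 against PBS ran from -0.09 to 0.18 for Cd14, -0.02 to 0.26 for Lbp, -0.03 to 0.04 for Ly96, -0.02 to 0.25 for Myd88 and -0.10 to 0.19 for Tlr2. Against HDAd-0, HDAd-gE3 ran from -0.01 to 0.08 for Ly96 and -0.18 to 0.08 for Myd88, and against PBS from 0.00 to 0.09 for Ly96. The cause was not tested. Groups share only 2 replicate numbers, and deviations of same-numbered arrays correlated between 0.01 and 0.13, so the numbers were not taken as pairs; with the replicate block 0 members were called and Aoah differed by -0.73 ± 0.091 between HDAd-gE3 and PBS (limma, adjusted p = 0.488).

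Over all probe sets, calls for HDAd-0 against PBS, HDAd-gE3 against PBS and HDAd-gE3 against HDAd-0 were 4, 1 and 0, but 38, 80 and 3 with the filter on dim probe sets, 12, 23 and 1 with 1 probe set per gene, 15, 24 and 1 with the mean of probe sets, 23, 86 and 0 with the intensity trend, 47, 70 and 0 at a threshold of 0.1, 3, 279 and 0 with array weights and 542, 0 and 402 without HDAd-0 replicate 4. They were 0, 12 and 0 with only the compared groups in the fit, and 0 in all 3 with the replicate block or the covariate. Leaving out one of the other arrays gave 0 to 8, 0 to 12 and 0 to 1. With 3 arrays a group, dim probe sets limit what can be seen.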
